A study of Mus musculus with 8 samples.

Results

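The transcription factors that direct progenitors into the T cell and innate lymphoid lineages were examined in Ebf1-deficient blood progenitors given either form of the B-lineage factor EBF1. The set was chosen by gene name, with earlier results of these data known: Gata3, Tcf7, Lef1, Zbtb16, Rora, Bcl11b, Tox, Nfil3, Ets1 and Sox4. Of these 10 genes, 9 were matched by name among the 27337 genes of the array, through 21 of its 41174 probes, and Zbtb16 was not analysed here. Probes entered the tests if their signal was well above background on 2 or more of the 8 arrays, which kept 8 of the genes with 16 probes. Both Bcl11b probes were above background on 0 of 8 arrays.

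All cells were c-Kit+ cells from the fetal liver of Ebf1-/- mice on a C57Bl/6 background, so the controls lacked Ebf1 as well. They were grown on OP9 stromal feeder cells with 5 ng/ml IL-7, 10 ng/ml Flt3L and 10 ng/ml SCF and were infected with a pMys-IRES-GFP retrovirus. The vector held GFP alone (Empty, n = 2 arrays), wild-type EBF1 (EBF1wt, n = 3) or EBF1-H240A (n = 3), in which alanine replaces a histidine of EBF1. Cells positive for GFP were collected 36 h after infection, and Cy3-labelled cRNA from 0.2 ug of RNA was hybridised to 1-colour Agilent arrays. The ages and numbers of fetuses are not given in the sources used here, EBF1 was driven by a retroviral vector rather than its own locus, and the labels do not say whether replicates were separate cultures or animals. The spread that the p-values rest on is that of these 8 samples and may be technical.

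As background, TCF-1 (encoded by Tcf7) and GATA-3 act below Notch signalling in the earliest T cell progenitors, and Bcl11b then closes the alternative fates. Innate lymphoid cells share much of this set: Nfil3, Tox and Tcf7 are needed in their common precursors, and Gata3, Rora and Bcl11b in the type 2 cells. EBF1 directs the B cell fate from related progenitors and is known to repress Gata3 and Tcf7 there, while Lef1, Sox4 and Ets1 also serve B cell precursors.

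The probes are 60 bases long, and a few are shown here because the results turn on what they read. The first pair reads the same stretch of Ets1, the first from a place in the mouse genome (mm9 chr9:32561826-32561885, plus strand) and the second listed as unmapped in the scanner files. They overlap by 50 bases, of which 46 match. The differences, in capitals and counted from base 1 of the first sequence, are A10G, G11C, G37C and C38G.
Ets1, mapped probe: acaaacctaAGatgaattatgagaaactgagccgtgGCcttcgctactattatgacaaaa
Ets1, unmapped probe: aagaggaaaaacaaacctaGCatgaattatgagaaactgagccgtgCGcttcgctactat
The next is the start of the Lef1 probe, for the member with the largest fall, up to a stop codon in capitals. The 60 bases of the whole probe are spread over 18162 bases of mm9 (chr3:130907851-130926012, plus strand), so it reads across a splice junction.
Lef1, first 35 bases: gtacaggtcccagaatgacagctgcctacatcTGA
The Sox4 probe (mm9 chr13:29044066-29044125, minus strand) is the only probe of its gene. The Rora probe (mm9 chr9:69226611-69226670, plus strand) belongs to the member whose signal moved least with EBF1wt, and the Bcl11b probe (mm9 chr12:109153847-109153906, minus strand) to the member that was not detected.
Sox4: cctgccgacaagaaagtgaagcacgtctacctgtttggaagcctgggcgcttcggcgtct
Rora: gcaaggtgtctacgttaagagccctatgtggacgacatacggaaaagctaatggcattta
Bcl11b: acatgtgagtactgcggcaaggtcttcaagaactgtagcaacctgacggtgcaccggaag
The probes that represent Gata3 and Tcf7 lie at mm9 chr2:9778983-9779042 and chr11:52066114-52066173, both on the minus strand. That of Gata3 is also the only probe of its gene. Gene models of that build were not used here, so exons and untranslated regions are not assigned.

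Arrays had 54.6% to 59.6% of probes well above background and 0 saturated spots, and arrays of the same group correlated at 0.991 to 0.995 across genes. Signals are given as log2 of the processed intensity after each array was scaled to the same 75th percentile, and levels of different probes are not comparable. A gene is called changed where limma gave an adjusted p under 0.05 (Benjamini-Hochberg, 16309 genes), and differences are log2 values ± SE. The number of arrays limits the precision. The arrays came from 2 slides, each with 1 Empty array, so that within a slide only 1 residual degree of freedom was left. Slide 1 also held EBF1wt 2 and EBF1-H240A 1 and 2, and slide 2 held EBF1wt 1 and 3 and EBF1-H240A 3. The 2 proteins were thus spread unevenly over the slides.

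EBF1wt against Empty asks which of these factors wild-type EBF1 changes. Of the 8 tested genes, 5 fell with EBF1wt (Lef1, Gata3, Sox4, Tcf7 and Nfil3), 0 rose and 3 did not pass. Of all 16309 genes 38.4% were called, with 21.3% lower and 17.2% higher. The median difference of the 8 genes was -0.50, against -0.04 over all genes. Arrays of both groups did not overlap for 6 members that were lower and for 1, Ets1, that was higher, where 34.8% and 26.5% of all genes did not overlap in these directions.

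EBF1-H240A against Empty asks the same of the altered protein, with the same 2 Empty arrays as controls. Of the 8 genes, 4 fell (Lef1, Gata3, Sox4 and Tcf7), 0 rose and 4 did not pass, where 44.6% of all genes were called, 23.0% as lower and 21.6% as higher. The median of the members was -0.61, against 0.00 over all genes. For 6 members the EBF1-H240A arrays lay below the Empty arrays without overlap, as did 34.0% of all genes, and 0 members lay above without overlap, as did 31.5% of all genes.

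**Figure D1:**
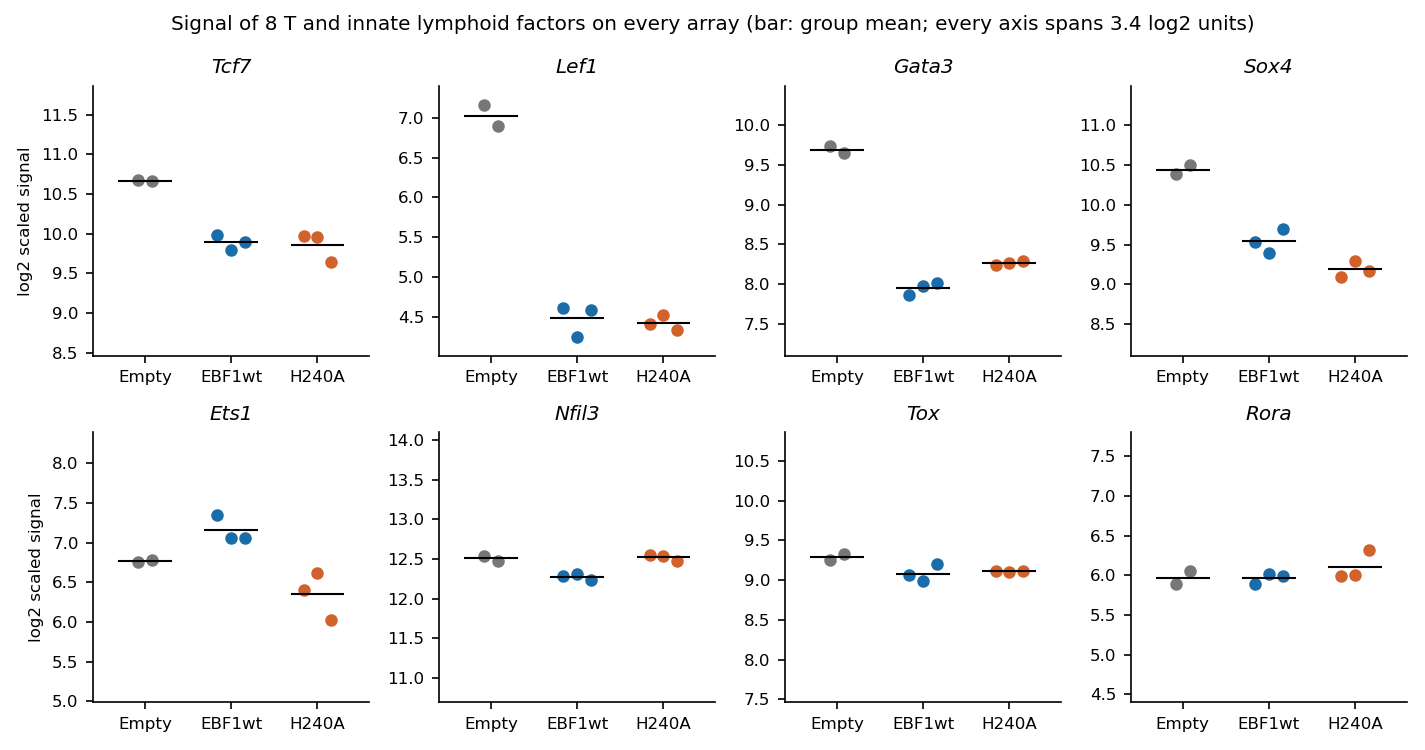
Log2 scaled signal (vertical axis) of the probe that represents each of the 8 tested genes, by group, with each array as a point and the group mean as a bar. Empty points lie above all points with either form of EBF1 for Tcf7, Lef1, Gata3 and Sox4, and Ets1 has its lowest points with EBF1-H240A.

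Lef1 encodes LEF-1, an HMG-box protein that binds DNA and relays Wnt signals through beta-catenin. Its log2 signal was 7.16 and 6.90 with Empty, 4.60, 4.25 and 4.58 with EBF1wt, against 4.41, 4.52 and 4.34 with EBF1-H240A. Both Empty arrays lay more than 2 log2 units above all 6 arrays with either protein. Lef1 fell by 2.55 ± 0.14 with EBF1wt (adjusted p = 2.57e-05), to 17.0% of the Empty signal, and fell by 2.61 ± 0.14 with EBF1-H240A (adjusted p = 1.88e-05), to 16.4%. A second Lef1 probe gave 6.73 and 6.82 with Empty, 4.40, 4.44 and 4.18 with EBF1wt, against 4.00, 4.13 and 4.11 with EBF1-H240A. It too was called as lower against Empty in both comparisons (-2.44 and -2.70). These are dim levels after EBF1, and with normexp background correction the 2 differences of Lef1 were -1.09 and -1.06, both still called.

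Tcf7 encodes TCF-1, the paralog of LEF-1. Its signal was 10.67 and 10.66 with Empty, 9.98, 9.80 and 9.90 with EBF1wt, against 9.97, 9.96 and 9.65 with EBF1-H240A. The Empty arrays were the highest, without overlap, while the arrays with either protein overlapped each other. Tcf7 fell by 0.77 ± 0.11 with EBF1wt (adjusted p = 0.00209) and fell by 0.81 ± 0.11 with EBF1-H240A (adjusted p = 0.0014), to 58.5% and 57.1% of the Empty signal. The other Tcf7 probe averaged 9.17 ± 0.05 with Empty (SD, n = 2), 8.13 ± 0.05 with EBF1wt (SD, n = 3) and 8.08 ± 0.11 with EBF1-H240A (SD, n = 3), and was also lower with both (-1.03 ± 0.08 and -1.09 ± 0.08).

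Sox4, an HMG-box factor of the SOX family that supports both B and T cell precursors, had signals of 10.39 and 10.50 with Empty, 9.53, 9.39 and 9.70 with EBF1wt, against 9.09, 9.30 and 9.17 with EBF1-H240A. The 3 groups did not overlap, with Empty highest and EBF1-H240A lowest. Sox4 fell by 0.90 ± 0.11 with EBF1wt (adjusted p = 0.000957) and fell by 1.26 ± 0.11 with EBF1-H240A (adjusted p = 0.000178), to 53.5% and 41.8% of the Empty signal. Tox, an HMG-box factor of developing T and innate lymphoid cells, had 9.25 and 9.33 with Empty, 9.06, 8.99 and 9.20 with EBF1wt, against 9.12, 9.11 and 9.11 with EBF1-H240A. The Empty arrays lay above the others by small gaps, and neither difference passed (-0.21 ± 0.08, adjusted p = 0.0749, and -0.18 ± 0.08, adjusted p = 0.104). The EBF1wt difference of Tox was called without EBF1wt 3 (-0.27, adjusted p = 0.0272), and that of EBF1-H240A with normexp correction (-0.28, adjusted p = 0.0496).

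Gata3 encodes a zinc finger factor required for T cells and for type 2 innate lymphoid cells. Its signal was 9.73 and 9.65 with Empty, 7.85, 7.98 and 8.02 with EBF1wt, against 8.24, 8.27 and 8.29 with EBF1-H240A. The groups did not overlap, and EBF1-H240A arrays lay between the others, closer to EBF1wt. Gata3 fell by 1.74 ± 0.07 with EBF1wt (adjusted p = 8.23e-06), to 30.0% of the Empty signal, and fell by 1.42 ± 0.07 with EBF1-H240A (adjusted p = 1.47e-05), to 37.3%. Rora, a nuclear receptor of type 2 innate lymphoid cells, gave 5.88 and 6.06 with Empty, 5.89, 6.02 and 5.99 with EBF1wt, against 5.99, 6.01 and 6.31 with EBF1-H240A. All groups overlapped, and Rora did not pass in either comparison (0.00 ± 0.12, with a 95% interval of -0.28 to 0.27, and 0.13 ± 0.12, with an interval of -0.14 to 0.41). Its other kept probe did not pass either (-0.15 and 0.04).

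Nfil3, a basic leucine zipper repressor of the innate lymphoid precursors, had signals of 12.53 and 12.48 with Empty, 12.28, 12.31 and 12.23 with EBF1wt, against 12.55, 12.54 and 12.47 with EBF1-H240A. The EBF1wt arrays were the lowest, without overlap, and EBF1-H240A overlapped with Empty. Nfil3 fell by 0.23 ± 0.06 with EBF1wt (adjusted p = 0.0204), to 85.1% of the Empty signal, and its difference with EBF1-H240A was 0.02 ± 0.06 (adjusted p = 0.854). Its second probe was called as lower with EBF1wt as well (-0.26 ± 0.08, adjusted p = 0.0451 over all probes). The call with EBF1wt was lost without Empty 1 (adjusted p = 0.107), without Empty 2 (0.0561) and without EBF1wt 3 (0.0526), and also without the filter on dim probes (0.096) and in the authors' deposited table of log2 values, called the value table below (0.1).

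Ets1, the founding ETS factor, serves T, natural killer and B cells. At the probe that represents it, the signal was 6.76 and 6.79 with Empty, 7.35, 7.06 and 7.06 with EBF1wt, against 6.41, 6.62 and 6.03 with EBF1-H240A. No groups overlapped, with EBF1wt highest and EBF1-H240A lowest. Neither difference from Empty passed (0.38 ± 0.18, adjusted p = 0.133, and -0.42 ± 0.18, adjusted p = 0.0954). The EBF1wt difference was called with the mean over the 4 probes (0.43, adjusted p = 0.0356), and the EBF1-H240A difference without EBF1-H240A 2 (-0.55, adjusted p = 0.0382).

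Bcl11b, a zinc finger factor of T cell commitment, was not well above background on any of the 8 arrays, at either probe. At the probe shown above, the surrogate signals were 2.13 and 2.14 with Empty, 1.04, 2.20 and 0.96 with EBF1wt, against 1.57, 1.04 and 0.65 with EBF1-H240A. They are values below background and give no order of the groups.

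Within slides 1 and 2, the differences of EBF1wt from Empty were -1.75 and -1.71 for Gata3, -0.87 and -0.72 for Tcf7, -2.91 and -2.31 for Lef1, -0.99 and -0.89 for Sox4, and -0.23 and -0.22 for Nfil3. For EBF1-H240A they were -1.48 and -1.36 for Gata3, -0.71 and -1.01 for Tcf7, -2.70 and -2.57 for Lef1, and -1.19 and -1.33 for Sox4. All of these had the sign of the pooled fit. In these small fits, Lef1 alone passed in both slides in each comparison, and Gata3 passed in slide 1 with EBF1-H240A. In bulk RNA, fewer cells of a type and less RNA of a gene per cell cannot be told apart for any of these genes.

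**Figure D2:**
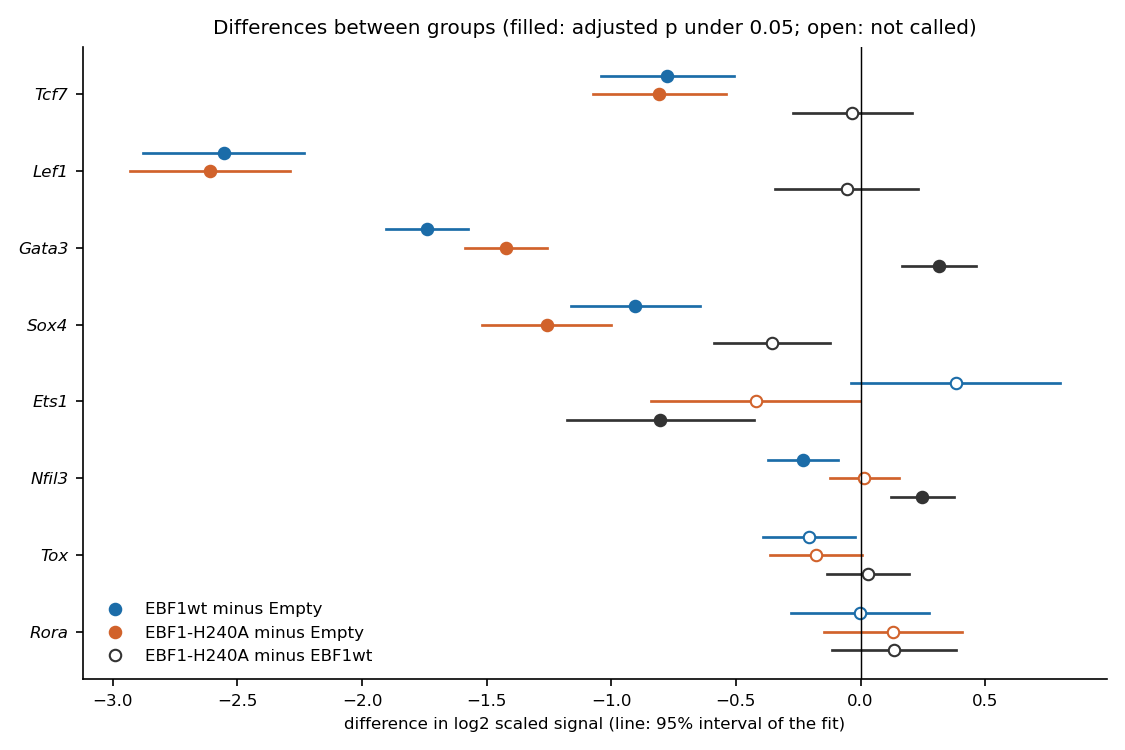
Differences in log2 scaled signal (horizontal axis) between groups for each tested gene, with 95% intervals of the limma fit as lines and filled points for adjusted p under 0.05. Lef1, Gata3, Sox4 and Tcf7 lie left of 0 against Empty in both comparisons, and the differences between the 2 proteins (black) are smaller for all genes except Ets1, Nfil3 and Rora.

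EBF1-H240A against EBF1wt asks where the altered protein differs from the wild type. Of the 8 genes, Gata3 and Nfil3 were higher and Ets1 lower with EBF1-H240A, and 5 did not pass. Over all genes 6.36% were called, 3.64% as higher and 2.72% as lower. The median of the members was 0.00, against 0.02 over all genes. Arrays did not overlap for 2 members that were higher and 2 that were lower (Ets1 and Sox4), where 17.0% and 12.9% of all genes did not overlap in these directions.

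Gata3 was higher by 0.32 ± 0.06 with EBF1-H240A than with EBF1wt (1.24-fold, adjusted p = 0.0331), and Nfil3 by 0.25 ± 0.05 (1.19-fold, adjusted p = 0.0421). Ets1 was lower by 0.80 ± 0.16, a difference of -0.80 that left 57.3% of the EBF1wt signal (adjusted p = 0.0328). These calls lay close to the threshold. In the limma fit over all probes, neither Nfil3 probe passed between the proteins (0.25, adjusted p = 0.0532, and 0.20, adjusted p = 0.189). Leaving out any of the 8 arrays in turn ended the Gata3 call (0.27 to 0.35, adjusted p = 0.0512 to 0.105) and the Nfil3 call (0.23 to 0.27, adjusted p = 0.0661 to 0.136). The Ets1 call held only without EBF1-H240A 2 (-0.94, adjusted p = 0.0286) and was otherwise lost, with adjusted p up to 0.110. With normexp correction it was called at -0.38. With the slide as a block, limma called 0 of the 8 members between the proteins. Within slides 1 and 2 the differences were 0.27 and 0.35 for Gata3, 0.24 and 0.22 for Nfil3, and -0.55 and -1.17 for Ets1, and limma called 0 of all genes in these fits, so that no member could pass.

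The other members did not pass between the 2 proteins. The difference was -0.03 for Tcf7 (95% interval -0.27 to 0.21), -0.06 for Lef1 (-0.34 to 0.23), 0.03 for Tox (-0.14 to 0.19) and 0.13 for Rora (-0.11 to 0.38). These intervals bound how far the proteins could differ on these arrays and do not show equal levels. The second Lef1 probe differed by -0.26 without overlap (adjusted p = 0.149 over all probes). Sox4 differed by -0.36 ± 0.10 (adjusted p = 0.0841) and was called with normexp correction (-0.40, adjusted p = 0.0361).

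Ets1 was read by 4 probes, and their values are given because the 2 proteins lay on opposite sides of Empty. The probe at mm9 chr9:32562878-32562937 gave 5.35 and 5.32 with Empty, 5.84, 5.62 and 5.79 with EBF1wt, against 5.01, 4.99 and 5.06 with EBF1-H240A. Its groups did not overlap. The mapped probe shown above gave 6.47 and 6.49 with Empty, 7.14, 6.86 and 6.84 with EBF1wt, against 6.42, 6.43 and 5.99 with EBF1-H240A. The unmapped probe with 4 differing bases gave 4.33 and 4.41 with Empty, 4.99, 4.63 and 4.89 with EBF1wt, against 4.38, 4.20 and 3.85 with EBF1-H240A, where only the last group overlapped with Empty. All 4 probes were higher with EBF1wt than with Empty (0.38 to 0.47), and 1 of them was called (0.42 ± 0.08, adjusted p = 0.00715), where 35.9% of 24983 probes were called. All 4 were lower with EBF1-H240A than with Empty (-0.42 to -0.20), with the same probe called (-0.31 ± 0.08, adjusted p = 0.0192), where 42.1% of probes were called. Between the proteins all 4 were lower with EBF1-H240A (-0.80 to -0.67) and 3 were called, where 5.28% of probes were called. Probes of a gene share its RNA and the same arrays and are not replicates.

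**Figure D3:**
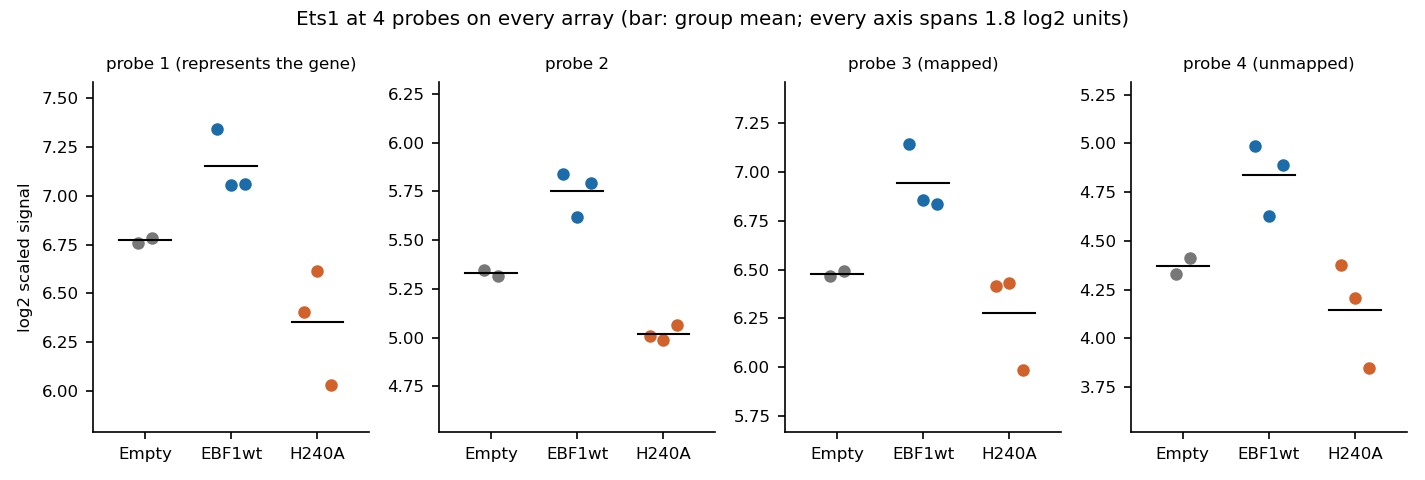
Log2 scaled signal of Ets1 at its 4 probes (panels) by group, with each array as a point and the group mean as a bar; every vertical axis spans 1.8 log2 units. EBF1wt points lie highest in each panel, and EBF1-H240A points lie below Empty except for 1 overlapping array at the unmapped probe.

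Other genes of the same lineages were taken from 5 lists, whose shares of called genes are set against those of all genes (38.4% with EBF1wt, 44.6% with EBF1-H240A and 6.36% between the proteins). The lists were chosen with earlier results of these data known, so their shares are a description and not a test. Of 32 other T cell and innate lymphoid transcription factors, 27 were tested. With EBF1wt 9 rose, 5 fell and 13 did not pass (median 0.05), and with EBF1-H240A 11 rose, 7 fell and 9 did not pass (median 0.05). These calls were 51.9% and 66.7% of the list, above the 38.4% and 44.6% of all genes. Tbx21, which encodes T-bet of type 1 lymphocytes, had signals of 6.88 and 6.57 with Empty, 10.88 to 11.42 with EBF1wt and 11.58 to 11.90 with EBF1-H240A. It rose by 4.48 ± 0.19 (22.4-fold, adjusted p = 9.17e-06) and by 5.04 ± 0.19 (32.9-fold, adjusted p = 5.4e-06). The aryl hydrocarbon receptor gene Ahr fell by 1.31 ± 0.08 with EBF1wt and fell by 1.37 ± 0.08 with EBF1-H240A. Between the proteins 4 were higher, 1 lower and 22 did not pass with EBF1-H240A (18.5% called, against 6.36% of all genes). The value of Zbtb7a below was 0.21 in the value table, where it was not called. Zbtb7a (0.44 ± 0.06, adjusted p = 0.0119) and the E protein inhibitor gene Id2 (0.44 ± 0.08, adjusted p = 0.0266) were higher, and Myb, a factor of progenitor growth, was lower (-0.48 ± 0.08, adjusted p = 0.0227).

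Of 20 paralogs of the members, 15 were tested. With EBF1wt 5 rose, 3 fell and 7 did not pass (median -0.03), and with EBF1-H240A 2 rose, 3 fell and 10 did not pass (median 0.08). The first share, 53.3%, was above the 38.4% of all genes, and the second, 33.3%, was below the 44.6%. Tef, a basic leucine zipper gene related to Nfil3, rose by 1.60 ± 0.11 and 1.54 ± 0.11. Tox3, a relative of Tox, fell with both (-1.41 ± 0.09 and -2.22 ± 0.09). The ETS gene Erg rose by 0.93 ± 0.25 with EBF1wt (adjusted p = 0.0249), a call lost without Empty 1, Empty 2 or EBF1wt 2 (0.81 to 1.04), without the filter on dim probes and as the mean over its probes. Sox11 fell with both, by 0.92 ± 0.11 with EBF1wt and by 1.25 ± 0.11 with EBF1-H240A (the latter -0.49 with normexp correction). Between the proteins Tox3 (-0.81 ± 0.08, adjusted p = 0.00477) and Ets2, the paralog of Ets1 (-0.45 ± 0.08, adjusted p = 0.0287), were lower with EBF1-H240A and 13 did not pass (13.3% called). Tox3 was dim and was above background on 2 of the 3 EBF1-H240A arrays. With normexp correction its differences from Empty were -0.31 and -0.39, both still called, and that between the proteins was -0.08 (adjusted p = 0.897). In the value table they were -0.85, -1.27 and -0.42, all called.

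Partners and Wnt target genes of TCF-1 and LEF-1 were 18, of which 13 were tested. With EBF1wt 1 rose, 7 fell and 5 did not pass (median -0.40), and with EBF1-H240A 2 rose, 3 fell and 8 did not pass (median -0.13). The first share, 61.5%, was above the 38.4% of all genes, and the second, 38.5%, was below the 44.6%. Znrf3, a ligase that removes Wnt receptors, fell with both (-1.40 ± 0.15 and -1.77 ± 0.15), by less with normexp correction (-0.68 and -0.73). The Wnt antagonist gene Nkd1 (-0.85 ± 0.13) and Tle2 (-0.65 ± 0.08), a gene of the Groucho family that binds TCF proteins, fell with EBF1wt, and both calls were lost with normexp correction (-0.31 and -0.28). Of the same family, Tle1 (-0.44 ± 0.12 and -0.67 ± 0.12) and Tle5 (-0.44 ± 0.08 and -0.43 ± 0.08) fell with both, and the larger difference of Tle1 was -0.42 with normexp correction. Between the proteins Nkd1 (0.73 ± 0.11, adjusted p = 0.0159) and Tle2 (0.48 ± 0.07, adjusted p = 0.0151) were higher with EBF1-H240A, 0 were lower and 11 did not pass (15.4% called). Both calls were lost with normexp correction (0.34 and 0.23).

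Of 21 T cell genes, 19 were tested. With EBF1wt 5 rose, 9 fell and 5 did not pass (median -0.28), and with EBF1-H240A 3 rose, 10 fell and 6 did not pass (median -0.33), which made 73.7% and 68.4% called, above the shares of all genes. Members of the list moved both ways: Cd6, a surface receptor of T cells, fell with both (-2.83 ± 0.16, or -1.88 with normexp correction, and -2.50 ± 0.16), while the CD8 co-receptor genes rose. Cd8b1 was 3.89 and 4.24 with Empty, 10.93 to 11.14 with EBF1wt and 11.23 to 12.05 with EBF1-H240A, a rise of 7.00 ± 0.23 and 7.59 ± 0.23 (adjusted p = 4.1e-06 and 3.03e-06). Cd8a did not reach well above background with Empty (0 of 2 arrays) and was at least 23.0-fold and at least 20.2-fold higher (adjusted p = 0.00014 and 0.000129), set against the lowest detectable signal of each Empty array where that was higher than its own. These bounds hold for the main processing only. With normexp correction the log2 differences of Cd8a were 1.78 and 1.59, and in the value table they were 3.26 and 2.96, all called and all smaller than these bounds. Between the proteins 5 were lower, 0 higher and 14 did not pass with EBF1-H240A (26.3% called). The lower genes included the T cell receptor signalling genes Zap70 (-1.18 ± 0.16, adjusted p = 0.0112) and Lat (-0.69 ± 0.09, adjusted p = 0.00875) and the lymphoid progenitor marker Ly6d (-0.82 ± 0.06, adjusted p = 0.00135). Against Empty, Zap70 (0.74 ± 0.18) and Ly6d (0.95 ± 0.07) rose with EBF1wt. Neither passed with EBF1-H240A (-0.43 ± 0.18 and 0.13 ± 0.07), while Lat fell with both proteins (-1.39 ± 0.10 and -2.08 ± 0.10).

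Of 23 innate lymphoid cell genes, 20 were tested. With EBF1wt 1 rose, 10 fell and 9 did not pass (median -0.40), and with EBF1-H240A 3 rose, 11 fell and 6 did not pass (median -0.61), which made 55% and 70% called, above the shares of all genes. The integrin gene Itgae (-3.23 ± 0.10 and -3.26 ± 0.10), the inhibitory receptor gene Pdcd1 (-2.30 ± 0.24 and -2.14 ± 0.24) and Il2rb (-1.62 ± 0.10 and -1.47 ± 0.10), a receptor chain for the interleukins that sustain natural killer cells, fell with both. Between the proteins 1 was higher, 2 lower and 17 did not pass with EBF1-H240A (15% called). The cytotoxic granule genes Prf1 (-0.81 ± 0.13, adjusted p = 0.0188, and -0.43 with normexp correction) and Gzma (-0.74 ± 0.06, adjusted p = 0.00218) were lower and the adaptor gene Tyrobp was higher (0.40 ± 0.07, adjusted p = 0.02). Against Empty, Gzma rose with EBF1wt (0.83 ± 0.07) and did not pass with EBF1-H240A (0.09 ± 0.07). Prf1 fell (-0.65 ± 0.15) and Tyrobp rose (0.61 ± 0.07) with EBF1-H240A, and neither passed with EBF1wt (0.15 ± 0.15 and 0.22 ± 0.07).

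Between the proteins, 17 of the 94 tested list genes were called, and the count fell to 6 without EBF1wt 1, to 9 without EBF1wt 2 and to 10 without EBF1wt 3 or EBF1-H240A 1. Over all genes the count fell as well, from 1038 to 365, 441, 685 and 448 in these fits. Of the 13 genes named for this comparison, Ly6d, Lat, Zap70, Gzma and Tox3 stayed called whichever array was left out. The others (Myb, Zbtb7a, Id2, Ets2, Nkd1, Tle2, Prf1 and Tyrobp) all lost the call without EBF1wt 1, and all but Zbtb7a also lost it without at least 1 other array, with the same sign in all these fits. Within either slide limma called 0 of all genes between the proteins, so that no list gene could pass.

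**Figure D4:**
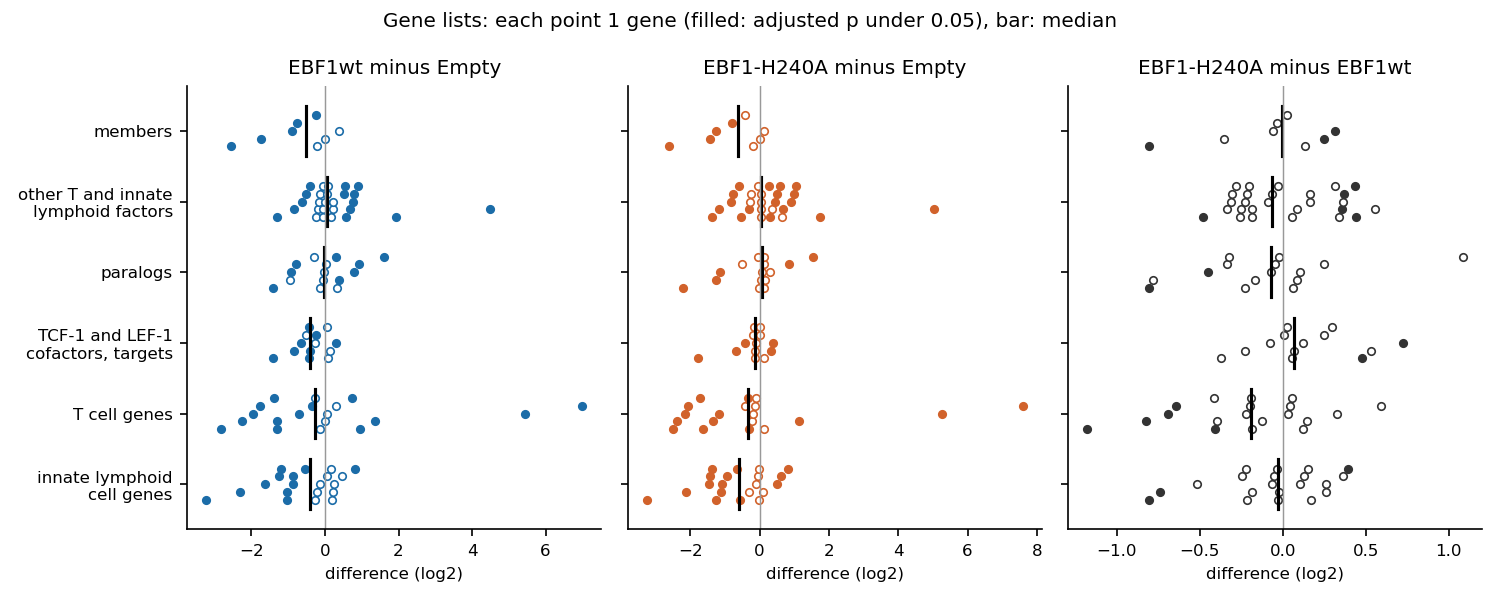
Differences in log2 scaled signal (horizontal axis; its range differs between the panels) for the tested members and for the genes of each list, in the 3 comparisons, with filled points for adjusted p under 0.05 and bars at the list medians. The medians of the members lie at -0.50 and -0.61 in the 2 comparisons with Empty and at 0.00 between the proteins. The points between 5 and 6 among T cell genes are Cd8a, which was below background with Empty and whose size depended on the processing.

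Markers of other cells moved beside these results, and their part in the results was not tested. All 7 progenitor markers were detected on all arrays, and their summed scaled signal was 43173 to 44833 with Empty, 24642 to 26156 with EBF1wt and 27705 to 28938 with EBF1-H240A. Much of this fall was Cd34, at 14.09 and 13.96 with Empty, 11.93 to 12.22 with EBF1wt and 12.81 to 12.90 with EBF1-H240A. Flt3 alone was higher with EBF1wt (10.38 to 10.71, against 10.26 and 10.20 with Empty), and it was lower with EBF1-H240A (9.90 to 9.92). For mature T cells 4 of 4 markers with a probe were detected somewhere, with sums of 1175 to 1396, 615 to 718 and 677 to 767 in the same order, and for natural killer and innate lymphoid cells 6 of 6, with 607 to 682, 493 to 546 and 408 to 505. Erythroid markers (4 of 6 detected, Klf1 among those detected nowhere) summed to 8289 to 9241, 1200 to 1336 and 839 to 924, and myeloid markers (5 of 6, Elane nowhere) to 110728 to 118703, 143753 to 155211 and 142800 to 160674. These sums follow their brightest genes, Hbb-bt and Ly6c2, and some other markers, named here after their values were seen, went the other way. Alas2, an enzyme of haem synthesis, was at 0.67 and 1.29 with Empty, 7.88 or above with EBF1wt and 6.53 to 7.45 with EBF1-H240A. Mpo, the peroxidase of myeloid granules, was at 9.24 and 8.91 with Empty, 6.02 to 6.21 with EBF1wt and 7.15 to 7.97 with EBF1-H240A, and Itgam was lower with both as well (9.38 and 9.55, against 7.67 to 7.96 and 7.57 to 8.30). Of the stromal markers 10 of 12 were detected, with Pdgfra and Postn nowhere. Without Thy1, which T cells also express, they summed to 961 to 1041 with Empty, 1959 to 2302 with EBF1wt and 2457 to 2542 with EBF1-H240A. Much of this rise was the brightest of them, Pdgfrb, at 8.58 and 8.69, 10.09 to 10.23 and 10.46 to 10.69 in the same order. Col1a2 moved less (7.30 and 6.92, 7.19 to 7.77 and 7.40 to 7.67), and its EBF1wt arrays overlapped with Empty. Both genes were named after their values were seen. Among hepatocyte markers 1 of 5 with a probe (Ahsg) and among mast cell markers 1 of 6 (Cpa3) were detected, with sums of 524 to 533, 159 to 192 and 56 to 59, and of 132 to 135, 22 to 27 and 22 to 26. The defining hepatocyte genes Alb and Afp were not above background anywhere. The B-lineage response genes (5 of 6 detected, Pax5 nowhere) summed to 755 to 819 with Empty, 51493 to 57828 with EBF1wt and 27848 to 31560 with EBF1-H240A.

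The genes whose profile over the 8 arrays lay closest to a member were found by the root mean square distance of centred log2 values, as a description. For Gata3 they were Dusp7 (0.0823) and Abcb9 (0.0956), for Lef1 Drc1 (0.158) and Cited4 (0.17), for Sox4 Marchf3 (0.067) and Cbfa2t3 (0.0801), and for Ets1 Pycr1 (0.108) and Muc13 (0.11). Those of Tcf7 included Tspan5 (0.0698). Rora, Tox and Nfil3 moved little, with ranges of 0.43, 0.35 and 0.32 over all arrays. Their nearest genes were Ehd4, Mkrn1 and Cmtm6.

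RefSeq promoter windows of 300 bases (250 before the start and 50 after it, GRCm38.p6) were found for 7 of the 10 genes, with 11 windows, and Zbtb16, Tox and Ets1 had none. Searched on both strands, the E box CAGCTG was in 5 windows of 5 genes, where 16.3% of 32851 windows held it. The core EBF motif CCCNNGGG was in 1 of the 11 (Bcl11b), where 13.7% of all windows held it, and the EBF consensus, which adds a T before and an A after that core, was in 0, where 0.904% did. The GATA motif AGATAA and the ETS motif CCGGAAGT were in 1 window each (11.2% and 3.89% of all), and the TCF motif CTTTGAT and the RUNX motif TGTGGT in 0 (3.73% and 16.8%). These are matches of letters in short windows.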

How the data were processed

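Gene expression was measured on 8 1-colour arrays, grouped by the labels. The submitters' processing notes name Agilent Feature Extraction 10.5.1.1 as the tool that read the spots. Per the file headers, the deposited processed signal is a linear intensity after background treatment, and the array annotation uses mm9. The deposited value table holds log2 values whose normalization, centring and source steps are not given in the sources used here. The direction of the table follows the scanner values (r = 0.972 to 0.979), and it was used only as an alternative.

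The intensities of 43379 non-control spots were scaled to a common 75th percentile, floored at 1 and turned into log2. Spots flagged as outliers were dropped before the spots of a probe were averaged. Of 41174 probes, 25007 were well above background on at least 2 arrays. Of these, 24 lacked a value on some array and were left out of the fit, which left 24983 probes. The brightest kept probe represented each gene (16309 genes). Names came from RefSeq tables by accession (27816 probes), symbol (5503) or older symbol (380), and otherwise from the files (7475). Rit1, an older name of Bcl11b, is another gene on this array and was left out.

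All 8 arrays entered 1 limma fit without covariates (limma 3.58.1, R 4.3.3, lmFit and eBayes, two-sided, Benjamini-Hochberg over all genes, 5 residual and 1.8 prior degrees of freedom), which was tested on simulated data. Adjusted p-values named in the text are from limma. From each list and comparison the 3 called genes with the largest differences are named, except that some items are not reported here. The members and lists were chosen with earlier results of these data known. Alternatives covered background correction, normalization, the filter on dim probes, the choice of probes, the slide, the replicate number, the value table and leaving out each array. Deviations of same-numbered arrays from their group means correlated at r = -0.332 to 0.192. With 2 Empty arrays, whose deviations mirror each other, and 3 arrays per other group, these values cannot show whether the numbers pair the samples.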

Additional observations from a re-analysis of the deposited data

How the results depend on the processing

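The counts of members called against Empty fell most where a fit used few arrays, and the count between the proteins also fell in some fits of all 8 arrays. For EBF1wt against Empty the count was 5, with 1 within slide 1, 1 within slide 2 and 4 to 5 when single arrays were left out. For EBF1-H240A against Empty it was 4, with 2 within slide 1, 1 within slide 2 and 4 to 5 when single arrays were left out. Between the proteins it was 3, and limma called 0 without a filter on dim probes, with the slide as a block, within either slide, with the value table, and 0 to 1 when single arrays were left out. In each fit that called 0, 4 members had an unadjusted p under 0.05, except within the slides, with 1 each, where 0 of all genes were called. With the replicate number as a block, 4, 4 and 0 members were called in the 3 comparisons; the block ended the calls of Nfil3 (EBF1wt against Empty, adjusted p = 0.0765) and, between the proteins, of Gata3 (0.101), Nfil3 (0.112) and Ets1 (0.0593), and no other call of a member. The cause was not tested. The calls of Lef1 held under all 19 alternatives in both comparisons with Empty, and those of Gata3, Tcf7 and Sox4 under all except fits within a slide.

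Of the 94 list genes tested, 55 passed in the comparison of EBF1wt with Empty (2 and 11 within slides 1 and 2, 44 to 56 when single arrays were left out) and 55 for EBF1-H240A (20 and 7, and 48 to 55). Between the proteins 17 were called, with 6 without the filter, 0 within either slide (14 and 24 with an unadjusted p under 0.05), 7 with the replicate block, 10 with the value table and 6 to 19 when single arrays were left out.

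Signs turned only for differences that were not called. Rora against Empty was 0.13 within slide 1 with EBF1wt and -0.0886 to 0.0832 when single arrays were left out. Nfil3 with EBF1-H240A was -0.0831 with normexp correction, -0.0259 with the mean over probes, -0.0047 within slide 2, -0.0074 in the value table and -0.0119 to 0.043 when single arrays were left out. Between the proteins Tcf7 was 0.17 within slide 1 (-0.0859 to 0.0721 when single arrays were left out), Lef1 0.035 with normexp correction and 0.22 within slide 1 (-0.17 to 0.0063), Rora -0.0215 within slide 1, and Tox -0.0445 with the mean over probes and -0.0197 within slide 2 (-0.0199 to 0.0894). Over the 24 differences of members, 367 of the alternative values kept direction and call, 65 lost the call, 5 gained it and 19 turned sign. The 43 differences of list genes chosen by the naming rule kept direction and call in 691 alternative values and lost the call in 121, and none (0) turned sign. Signal near background limits Bcl11b and the sizes of Lef1, Tox3, Sox11, Znrf3 and Cd8a.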
